A study of Mus musculus with 30 samples.

Results

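*Postn*, the gene of periostin, and 9 other genes of matricellular proteins (*Tnc*, *Tnxb*, *Thbs1*, *Thbs2*, *Thbs4*, *Sparc*, *Sparcl1*, *Spon1* and *Ccn2*) were examined in bulk RNA-seq libraries of sorted stromal cells from mouse intestine. These are 10 of the 32386 genes in the data. They were selected on the measured difference of *Postn* between small intestine (SI) and colon, and by their membership of the same class of proteins. The SI-against-colon values of *Postn* are therefore given as a description with no test. All 10 symbols were found, and each belonged to 1 gene identifier.

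The study sorted mesenchymal stromal cells from the SI and the colonic lamina propria of 3 individual mice of the C57BL6/Nrj strain, adult, untreated and 8 to 10 weeks old. Each of 10 populations had 3 libraries, which gives 30 libraries. Dead cells and cells positive for lineage markers, CD31, BP3 or EpCAM, or high in NCAM, had been gated out. Pericytes of both tissues were PDGFRα-ESAM-1+PDPN- and smooth muscle cells (SMC), sorted from the SI, were PDGFRα-ESAM-1+PDPN+, while all fibroblasts (FB) were ESAM-1-. In the SI, CD34+ FB (labelled as Igfbp5+ FB and CD81+ FB together) were PDGFRα intCD34+, Fgfr2+ FB were PDGFRα intCD34- and PDGFRα hi FB, the subepithelial subset, were CD34-. In the colon, CD81+ FB were PDPN intCD34+CD90-, CD90+ FB were PDPN hiCD34+CD90+, Fgfr2+ FB were PDPN hiCD34+CD90- and PDGFRα hi FB were PDPN+CD34-. The gates of Fgfr2+ FB and of PDGFRα hi FB thus differed between the tissues, and gate and tissue cannot be told apart in any comparison of SI with colon in these subsets. The total of estimated counts per library was between 2245052 and 19096945, with a median of 9601683. The smallest was replicate 3 of SI Fgfr2+ FB, where *Postn* still had 469 counts.

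Matricellular proteins are secreted into the extracellular matrix, where they bind collagens, growth factors, proteases and cell-surface receptors but serve mostly as modulators of cell behaviour and less as structural scaffold. Many are produced by fibroblasts and mural cells, and their expression is known to rise in development, wound repair, fibrosis and around tumours. Periostin, named after the periosteum, binds integrins and takes part in collagen cross-linking by way of BMP1 and lysyl oxidase, and in the gut it is known from the fibroblasts that lie beneath the crypt epithelium.

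Of the transcripts of sorting proteins, *Esam*, *Pdgfra*, *Fgfr2*, *Cd34* and *Thy1* followed the gates in most respects, while *Pdpn* is not reported here. *Esam* was at 106 ± 86.9 CPM (the count scaled by library size and TMM factor; mean ± SD, n = 3 throughout) in SI pericytes, 123 ± 31.7 in SMC and 139 ± 64.4 in colonic pericytes, and below 1 CPM on average in each FB population. *Pdgfra* was highest in PDGFRα hi FB, at 6362 ± 251 CPM in the SI and 2467 ± 79.9 CPM in the colon. *Fgfr2* was highest in SI Fgfr2+ FB (1684 ± 295 CPM) and, within the colon, in Fgfr2+ FB (476 ± 40.0 CPM). *Cd34* was at 86.5 ± 49.6 CPM in SI Fgfr2+ FB and 115 ± 33.6 CPM in SI PDGFRα hi FB, both sorted as CD34-, against 625 ± 61.5 CPM in SI CD34+ FB. *Thy1* (CD90) was at 99.4 ± 35.0 CPM in colonic CD81+ FB, sorted as CD90-, against 196 ± 50.2 CPM in CD90+ FB, so that these transcripts were lower in the negative gate and not absent from it. Neither *Thy1* nor *Cd81* was confined to FB. *Thy1* had a mean of 214 CPM in SI pericytes and *Cd81* 198 CPM in colonic pericytes, whose gates named neither protein.

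Marker lists of other cell types were summed in each library. The 5 pericyte markers summed to a mean of 39675 CPM in SI pericytes and 39743 in colonic pericytes, to 5421 CPM in SMC, and were also present in SI FB at 2053 to 3898 CPM against 173 to 654 CPM in colonic FB, mainly as *Rgs5* or *Abcc9*. The 5 smooth muscle markers summed to 19937 CPM in SMC, 10525 in colonic pericytes, 3422 in SI pericytes, and, in PDGFRα hi FB, 2548 in the SI and 1508 in the colon, with *Myh11* or *Acta2* as the most abundant gene in each. The 4 fibroblast markers summed to 10015 to 39448 CPM in the FB populations, to 5132 CPM in SMC and to 946 and 1559 CPM in colonic and SI pericytes. Replicate 3 of SMC had higher sums than replicates 1 and 2 for pericyte markers (7787 against 4388 and 4088 CPM) and for fibroblast markers (7542 against 3763 and 4089.7 CPM), and this library also had the highest *Postn* level of the SMC (2694 CPM). These sums differ with tissue or population as several results do, and their part in those results was not tested.

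Further lists stood for cell types other than the sorted ones. The 6 epithelial markers summed to at most 30.8 CPM in any library, and *Epcam* was at 0 in all libraries of 8 of the 10 populations. The 6 immune markers summed to 195 CPM in replicate 1 of SI pericytes (mainly *Cd79a*), to 142 CPM in replicate 2 of colonic pericytes and to at most 45.3 CPM elsewhere. The 5 endothelial markers had mean sums of 36.2 to 131 CPM (mainly *Pecam1*) and the 4 mesothelial markers 1.12 to 6.58 CPM. The highest endothelial sum of a library was 202 CPM in replicate 3 of SMC, against 56.3 and 62.7 CPM in replicates 1 and 2. That library is also the SMC library with the highest *Postn* level. The 3 neuronal markers reached 42.1 CPM in replicate 3 of colonic pericytes, as *Ret*, and at most 9.10 CPM in any other library. The 3 markers of interstitial cells of Cajal had mean sums of 799 and 786 CPM in SI and colonic pericytes, where *Ano1* made up most of the sum. In PDGFRα hi FB the sums were 458 CPM (SI) and 256 CPM (colon), mainly as *Etv1*. All 3 markers had means above 1 CPM in SI pericytes, but 2 of the 3 in colonic pericytes and in PDGFRα hi FB of both tissues. Interstitial cells of Cajal were not gated out by name, and their part in these sums was not tested. SI pericytes were the population whose replicates were least alike, with pairwise correlations of log2 CPM across genes of 0.723 to 0.804.

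*Postn* (GRCm38 3:54361109-54391037, plus strand) was high in all colonic FB libraries. Its level was 7506, 8020.4 and 8323 CPM in the 3 libraries of colonic CD90+ FB, and 8283, 5818 and 6251 CPM in colonic Fgfr2+ FB. Colonic PDGFRα hi FB had 3913, 3467 and 4619.8 CPM, and colonic CD81+ FB had 4866, 2057 and 2867 CPM. The lowest of these 12 libraries is replicate 2 of CD81+ FB, and no library of SI FB or pericytes reached it. In the SI, SMC had 1559, 1425 and 2694 CPM and CD34+ FB had 988, 484 and 866 CPM. SI Fgfr2+ FB had 158, 80.4 and 172 CPM, and SI PDGFRα hi FB had 29.5, 15.4 and 42.5 CPM. SI SMC libraries therefore overlapped with colonic CD81+ FB, whereas the SI FB subsets were separated from each other, with CD34+ FB on top. *Postn* in pericytes was at 281, 135 and 191 CPM in the SI and at 142, 315 and 136 CPM in the colon, so pericytes of the 2 tissues overlapped.

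By mean level the order for *Postn* was colonic CD90+ FB (7949.6 ± 413 CPM), colonic Fgfr2+ FB (6784 ± 1316), colonic PDGFRα hi FB (4000.0 ± 581), colonic CD81+ FB (3264 ± 1446), SMC (1893 ± 697), SI CD34+ FB (779 ± 263), SI pericytes (202 ± 73.7), colonic pericytes (198 ± 102), SI Fgfr2+ FB (137 ± 49.6) and SI PDGFRα hi FB (29.1 ± 13.6). Neighbours whose libraries overlapped were CD90+ with Fgfr2+ FB of the colon, colonic PDGFRα hi FB with CD81+ FB, CD81+ FB with SMC, the pericytes of both tissues, and colonic pericytes with SI Fgfr2+ FB. The highest mean was 273 times the lowest, and 97.5% of the variance of log2 level lay between populations. Both values include the tissue difference on which *Postn* was chosen, so nothing is read from them. In the other members this share was between 71.0% (*Thbs4*) and 96.1% (*Thbs2*). The order and these overlaps of *Postn* were the same with RLE factors. By library size alone, without a TMM factor, colonic CD81+ FB overlapped with neither colonic PDGFRα hi FB nor SMC. Colonic pericytes then ranked above SI pericytes. In bulk samples such as these, fewer cells of a type and less RNA per cell cannot be told apart. The tissue difference that chose the members, as log2 fold change of SI over colon, was -7.09 (SE 0.42) in PDGFRα hi FB and -5.62 (SE 0.39) in Fgfr2+ FB, against 0.08 (SE 0.55) in pericytes. The difference between the values of the FB subsets was -1.47 (SE 0.46), again without a test.

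**Figure D1:**
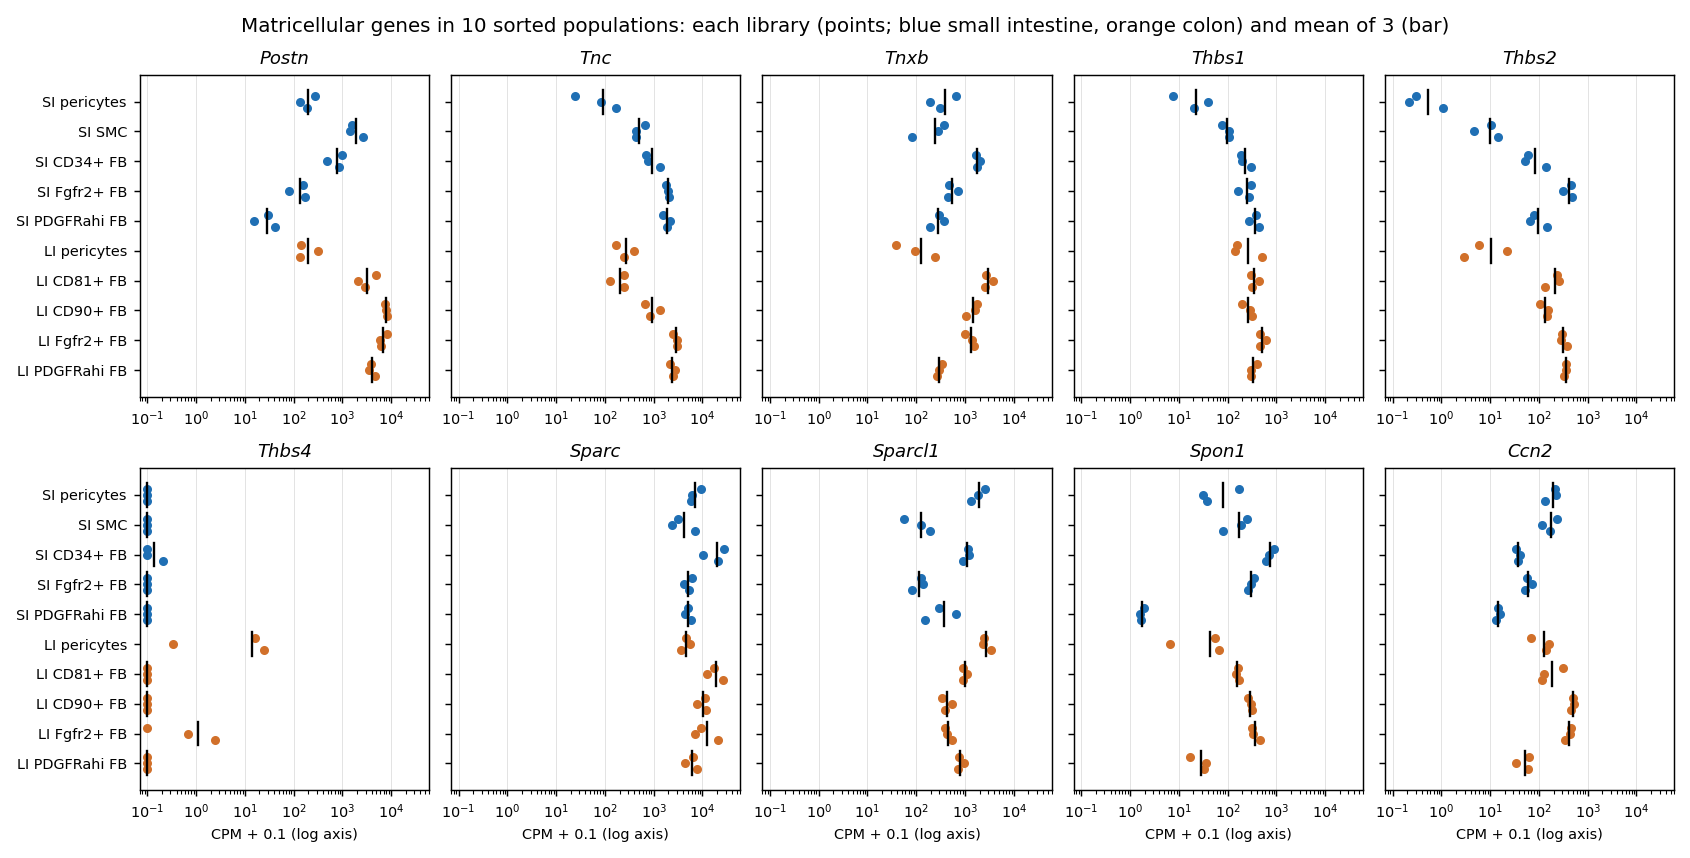
Level of each member (panels) in every library, as CPM + 0.1 on a log axis (horizontal) by population (vertical), with 1 point per library (blue SI, orange colon, LI) and a bar at the mean of 3. *Postn* is at 2057 CPM or more in all colonic FB libraries and between 15.4 and 42.5 CPM in SI PDGFRα hi FB.

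For *Postn* the comparisons within a tissue were tested, by edgeR's quasi-likelihood test. A gene was called when its Benjamini-Hochberg adjusted p, over all genes tested, was below 0.05 and its log2 fold change was beyond 1.5 in either direction. The contrasts of pericytes or SMC with FB use the mean of the log levels of the tissue's FB populations. *Postn* was higher in SMC than in SI FB, the log2 fold change being 3.65 (SE 0.32, adjusted p 1.44e-06), and all 3 SMC libraries lay above all 9 FB libraries. Without SMC replicate 3 it was 3.36. In the colon it was lower in pericytes than in FB (log2 fold change -4.67, SE 0.35, adjusted p 3.51e-08), with all 3 pericyte libraries below all 12 of FB; with counts made from length-scaled TPM it was -3.92. In the SI, pericytes differed from FB by 0.51 (SE 0.34, adjusted p 0.319), which missed the threshold; whether the pericyte-to-FB difference itself differed between the tissues was not tested.

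Among SI FB, *Postn* was higher in Fgfr2+ than in PDGFRα hi FB (2.18, SE 0.45, adjusted p 0.0123). This call was lost without replicate 1 of SI PDGFRα hi FB (adjusted p 0.0689) or without its replicate 2 (0.0831), although the libraries of the 2 groups did not overlap. *Postn* was higher again in CD34+ than in Fgfr2+ FB (2.55, SE 0.45, adjusted p 0.00954), a call lost without replicate 1 of CD34+ FB (adjusted p 0.0599) or replicate 2 of Fgfr2+ FB (0.0684). None of the corresponding differences in the colon passed: Fgfr2+ minus PDGFRα hi FB was 0.74 (SE 0.32, adjusted p 0.465), and CD81+ minus Fgfr2+ FB was -1.04 (SE 0.32, adjusted p 0.167).

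On the transcript level, Postn-204 held most of the *Postn* counts, with population means between 79.2 ± 21.9% (colonic pericytes) and 91.4 ± 2.2% (colonic Fgfr2+ FB). Replicate 2 of colonic pericytes was apart from its group, with 53.9% on Postn-204 and 37.4% on transcripts with a retained intron, against 93.7% and 89.9% on Postn-204 in replicates 1 and 3. That library is also the one with the highest *Postn* level among colonic pericytes, and leaving it out moved the pericyte-to-FB difference from -4.67 to -5.19. SMC had 9.5, 14.7 and 20.9% of the counts on transcripts with a retained intron, above the 2.1 to 8.7% of all colonic FB libraries and overlapping with SI PDGFRα hi FB (7.3, 19.3 and 18.2%).

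The tenascins are large glycoproteins of the matrix: tenascin-C, from *Tnc* (4:63959785-64047015, minus strand), modulates cell adhesion, and tenascin-X, from *Tnxb* (17:34670535-34719815, plus strand), associates with collagen fibrils. *Tnc* was at 2539, 3020.4 and 2996 CPM in colonic Fgfr2+ FB and at 2124, 2678 and 2492 CPM in colonic PDGFRα hi FB. In the SI, *Tnc* was at 1753, 2005 and 2086 CPM in Fgfr2+ FB and at 1577, 2149 and 1878 CPM in PDGFRα hi FB. These 4 populations stood above all other libraries, and within each tissue the 2 subsets overlapped. *Tnc* in colonic CD81+ FB was at 248, 129.7 and 243 CPM and in colonic CD90+ FB at 657, 1333 and 827 CPM. SI CD34+ FB had 681, 759 and 1325 CPM, SMC had 659.7, 437 and 441 CPM, and *Tnc* in pericytes was at 24.8, 82.2 and 172 CPM (SI) and 168, 391 and 249.7 CPM (colon). CD81+ FB, the lowest FB population, thus lay within the range of pericytes.

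*Tnc* was lower in colonic CD81+ FB than in Fgfr2+ FB, with a log2 difference of -3.77 (SE 0.36, adjusted p 7.60e-05), in 3 of 3 libraries, and this call held without each of the 15 colonic libraries in turn. It was lower in SI pericytes than in SI FB (-3.99, SE 0.49, adjusted p 2.56e-05, or -4.75 without SI pericyte replicate 3) and in colonic pericytes than in colonic FB (-1.97, SE 0.30, adjusted p 0.000110); in the colon the libraries overlapped, through CD81+ FB. In SMC it was lower than in FB by -1.59 (SE 0.42, adjusted p 0.0345), close to the fold threshold. That call was lost without any single SMC or PDGFRα hi FB library, replicate 3 of CD34+ FB, or replicate 2 or 3 of Fgfr2+ FB (adjusted p 0.0502 to 0.197). Within the SI, *Tnc* passed in neither comparison of FB subsets (Fgfr2+ minus PDGFRα hi FB 0.00, SE 0.47, adjusted p 1.00; CD34+ minus Fgfr2+ FB -1.05, SE 0.47, adjusted p 0.455), although CD34+ FB libraries lay below those of Fgfr2+ FB. SI minus colon was -0.37 (SE 0.18, adjusted p 0.558) in PDGFRα hi FB and -0.53 (SE 0.18, adjusted p 0.121) in Fgfr2+ FB, neither of which passed.

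*Tnxb* had a different order, with 2702, 3764 and 2594 CPM in colonic CD81+ FB and 1647, 2002 and 1756 CPM in SI CD34+ FB. Colonic Fgfr2+ FB had 993, 1404 and 1544 CPM of *Tnxb*, while PDGFRα hi FB had 338, 298 and 264 CPM in the colon and 294, 364 and 190.5 CPM in the SI. These CD34+-sorted populations were thus high and the PDGFRα hi FB of both tissues low, with no overlap. In the colon *Tnxb* was higher in Fgfr2+ than in PDGFRα hi FB (2.11, SE 0.45, adjusted p 0.0193). This call was lost without replicate 2 (adjusted p 0.0674) or 3 (0.0815) of Fgfr2+ FB and without replicate 1 (0.0767), 2 (0.107) or 3 (0.119) of PDGFRα hi FB. *Tnxb* was lower in colonic pericytes (38.7, 96.0 and 238 CPM) than in colonic FB, by -3.19 (SE 0.43, adjusted p 3.43e-05), or -4.06 without replicate 3 of the pericytes, with no overlap. *Tnxb* in SI pericytes (657, 193 and 308 CPM) overlapped with SI FB (-0.71, SE 0.42, adjusted p 0.266). Other genes carry 9.8% of the 31-base stretches of *Tnxb*, the highest such share among the members.

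Thrombospondins are secreted glycoproteins that bind CD36, CD47 and integrins; *Thbs1* (2:118111876-118127133, plus strand) and *Thbs2* (17:14665500-14694235, minus strand) form trimers and *Thbs4* (13:92751590-92794818, minus strand) belongs to the pentamers. *Thbs2* was nearly absent from SI pericytes, with 1, 1 and 8 counts (0.205, 0.122 and 0.969 CPM). It was at 463, 310.4 and 488 CPM in SI Fgfr2+ FB, at 79.9, 67.2 and 146 CPM in SI PDGFRα hi FB and at 60.1, 52.8 and 137 CPM in SI CD34+ FB. SMC had 10.5, 4.64 and 14.7 CPM of *Thbs2* and colonic pericytes had 5.83, 22.2 and 2.85 CPM. All mural libraries therefore lay below all FB libraries of *Thbs2*, and Fgfr2+ FB stood apart from the other SI FB. Colonic PDGFRα hi FB had 362, 365 and 328 CPM, colonic Fgfr2+ FB had 292, 279 and 384 CPM, colonic CD81+ FB had 234, 262 and 130.4 CPM and colonic CD90+ FB had 106, 153 and 149 CPM.

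*Thbs2* was lower in pericytes than in FB by -8.31 (SE 0.77, adjusted p 1.11e-06) in the SI and by -4.51 (SE 0.56, adjusted p 1.26e-05) in the colon. These values became -9.76 without SI pericyte replicate 3 and -5.76 without colonic pericyte replicate 2. With 1, 1 and 8 counts of *Thbs2* in SI pericytes, the size of the SI values depends on the prior count. *Thbs2* was lower in SMC than in SI FB by -3.97 (SE 0.58, adjusted p 0.000340). Its difference between SI Fgfr2+ and PDGFRα hi FB was 2.05 (SE 0.57), with no overlap of libraries, but missed the threshold (adjusted p 0.0795). In PDGFRα hi FB *Thbs2* was lower in SI than in colon (-1.83, SE 0.30, adjusted p 0.00281), in 3 of 3 libraries, while in Fgfr2+ FB the tissues overlapped (0.41, SE 0.30, adjusted p 0.509). The difference between these tissue differences was -2.25 (SE 0.42, adjusted p 0.0111). With all 30 libraries in 1 model, the tissue call in PDGFRα hi FB was lost (adjusted p 0.175), as was the call of the difference between subsets (adjusted p 0.348).

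*Thbs1* spanned 161 to 624 CPM over all FB libraries. SI pericytes had 7.37, 40.5 and 20.1 CPM of *Thbs1* and SMC had 78.7, 105 and 106 CPM, both below every SI FB library. Colonic pericytes had 153, 142 and 505 CPM, of which replicate 3 was within the range of colonic FB and the other replicates below every colonic FB library. *Thbs1* was lower in SI pericytes than in SI FB (-3.55, SE 0.48, adjusted p 6.88e-05; -4.27 without SI pericyte replicate 2), and the colonic difference was -0.40 (SE 0.33, adjusted p 0.423). For SMC against SI FB it was -1.55 (SE 0.42, adjusted p 0.0397). This SMC call was lost without any single SMC, CD34+ FB or PDGFRα hi FB library and without replicate 1 or 3 of Fgfr2+ FB (adjusted p 0.0525 to 0.151). It was also lost with no filter on low counts, where the log2 fold change was -1.50, with counts made from length-scaled TPM (adjusted p 0.0545) and when replicate numbers entered the model as blocks (0.0586).

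*Thbs4* was detected in few libraries. Colonic pericytes had 159, 2 and 336 counts (16.5, 0.246 and 24.6 CPM), colonic Fgfr2+ FB had 0, 6 and 22 counts, and 1 library of SI CD34+ FB had 1 count. In all libraries of the other 7 populations it was at 0. A level of 3 counts is 0.141 CPM in the library where it weighs least and more in the others, so lower levels may have been missed. Replicate 2 of colonic pericytes was at the level of FB and replicates 1 and 3 were far above it. It was thus higher in 2 of 3 pericyte libraries than in every FB library. *Thbs4* passed the filter on low counts in the colon through these pericyte libraries, since no more than 2 FB libraries had 6 counts, so its test against FB is not read and it is left out of the count of calls in colonic pericytes. It was too low to be tested in the other fits, and the neuronal marker *Ret*, high in replicate 3 of colonic pericytes, was at 0 in replicate 1.

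The SPARC family binds collagen and calcium. *Sparc* (11:55394500-55423183, minus strand) encodes the founding member, also called osteonectin, and *Sparcl1* (5:104079111-104113733, minus strand) its relative hevin, an anti-adhesive protein. *Sparc* had the narrowest range of the members, from 2413 to 27719 CPM over the 30 libraries, and its highest mean was 4.66 times its lowest. It was at 27719, 10307 and 20414 CPM in SI CD34+ FB and at 17532, 12361 and 26443 CPM in colonic CD81+ FB. The replicates of these populations spread widely and each neighbouring pair in the order of the 10 populations overlapped. *Sparc* was higher in SI CD34+ FB than in SI Fgfr2+ FB (6017, 4128 and 5234 CPM), with a log2 difference of 1.96 (SE 0.39, adjusted p 0.0206). The call was lost without replicate 1 (adjusted p 0.145) or 3 (0.0803) of CD34+ FB and without replicate 1 (0.0701), 2 (0.129) or 3 (0.0900) of Fgfr2+ FB. Colonic pericytes differed from colonic FB by -1.22 (SE 0.30, adjusted p 0.00843), short of the fold threshold.

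*Sparcl1* was highest in pericytes, with 2519.7, 1833 and 1359 CPM in the SI and 2423, 2322 and 3432 CPM in the colon, but was also present in FB. Colonic CD81+ FB had 930.4, 1112 and 916 CPM, colonic PDGFRα hi FB had 747, 961 and 712 CPM, and colonic CD90+ FB had 342, 536 and 383 CPM. SI CD34+ FB had 1159, 1208 and 914 CPM of *Sparcl1*, SI PDGFRα hi FB had 300.0, 659 and 155 CPM, and SI Fgfr2+ FB had 125, 135 and 81.6 CPM. Each pericyte library was above each FB library of its tissue, and of these populations SI PDGFRα hi FB varied most between replicates. *Sparcl1* was higher in pericytes than in FB by 2.45 (SE 0.36, adjusted p 0.000139) in the SI and by 2.15 (SE 0.17, adjusted p 7.83e-08) in the colon, and both calls held without each library of the fit in turn. It was also higher in SI CD34+ than in Fgfr2+ FB (3.29, SE 0.53, adjusted p 0.00474). SMC, with 55.7, 124 and 190.2 CPM, overlapped with SI FB and were called lower (-1.60, SE 0.44, adjusted p 0.0389). That call was lost without replicate 1 or 2 of SMC, of PDGFRα hi FB or of Fgfr2+ FB and without any single CD34+ FB library (adjusted p 0.0526 to 0.157), with length-scaled TPM counts (0.316) and with the replicate block (0.0721). Between the tissues, *Sparcl1* in Fgfr2+ FB was lower in SI than in colon (398, 427 and 546 CPM), by -1.99 (SE 0.40, adjusted p 0.0106), with no overlap.

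F-spondin, from *Spon1* (7:113765998-114043370, plus strand), is a secreted adhesion protein first known from the floor plate of the neural tube. *Spon1* was almost off in SI PDGFRα hi FB, at 1.84, 1.52 and 1.59 CPM from 14, 28 and 14 counts, and at 343, 304 and 262 CPM in SI Fgfr2+ FB. SI CD34+ FB had 887, 699 and 623 CPM, the highest of the populations. In the colon *Spon1* was at 17.0, 36.5 and 33.0 CPM in PDGFRα hi FB and at 322, 328 and 462 CPM in Fgfr2+ FB. PDGFRα hi FB were thus the lowest FB in both tissues, without overlap with any other FB library, and the SI libraries lay below the colonic ones. *Spon1* was higher in Fgfr2+ than in PDGFRα hi FB by 7.47 (SE 0.73, adjusted p 2.55e-05) in the SI and by 3.67 (SE 0.59, adjusted p 0.00206) in the colon. SI minus colon was -4.11 (SE 0.35, adjusted p 8.16e-06) in PDGFRα hi FB and -0.28 (SE 0.29, adjusted p 0.683) in Fgfr2+ FB, and the difference between the subsets in this tissue difference was -3.84 (SE 0.45, adjusted p 0.000387). These *Spon1* calls held without each library of their fits in turn.

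*Spon1* in pericytes was at 172, 31.8 and 38.4 CPM in the SI and at 54.1, 6.51 and 67.7 CPM in the colon. In each tissue 1 replicate stood apart, replicate 1 being high in the SI and replicate 2 low in the colon. SI pericytes lay between PDGFRα hi FB and the other SI FB, and colonic pericytes overlapped with PDGFRα hi FB and lay below the other colonic FB. In the colon *Spon1* was called lower in pericytes than in FB (-1.78, SE 0.47, adjusted p 0.0128), and without replicate 2 of colonic pericytes the log2 fold change was -1.27, under the fold threshold. SI pericytes (0.22, SE 0.44, adjusted p 0.774) and SMC (246, 191 and 81.4 CPM; 1.24, SE 0.42, adjusted p 0.112) did not pass against SI FB.

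CCN2, also called connective tissue growth factor, from *Ccn2* (10:24595442-24598683, plus strand), binds growth factors and integrins and is known as a target of YAP/TEAD and TGF-β signalling. *Ccn2* was at 14.3, 15.7 and 13.3 CPM in SI PDGFRα hi FB, 34.6, 40.6 and 37.4 CPM in SI CD34+ FB and 57.9, 73.0 and 52.2 CPM in SI Fgfr2+ FB. In the colon *Ccn2* was at 63.0, 34.2 and 60.1 CPM in PDGFRα hi FB, 458, 426 and 339.7 CPM in Fgfr2+ FB, 509, 529 and 455 CPM in CD90+ FB and 310.2, 126 and 117 CPM in CD81+ FB. The SI subsets were separated from one another with small spreads, PDGFRα hi FB were lowest in both tissues, and replicate 1 of CD81+ FB was high in its group. SI pericytes had 215, 228 and 134 CPM of *Ccn2*, SMC had 231, 117 and 170.4 CPM and colonic pericytes had 69.4, 162 and 142 CPM. SI pericytes and SMC were thus above all SI FB libraries, and colonic pericytes were within the range of colonic FB.

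*Ccn2* was higher than in SI FB by 2.62 (SE 0.28, adjusted p 5.26e-06) in SI pericytes and by 2.38 (SE 0.28, adjusted p 3.86e-05) in SMC, while colonic pericytes differed from colonic FB by -0.73 (SE 0.33, adjusted p 0.130). It was higher in Fgfr2+ than in PDGFRα hi FB by 2.03 (SE 0.39, adjusted p 0.00817) in the SI and by 2.94 (SE 0.42, adjusted p 0.000760) in the colon. The SI call was lost without replicate 1 of PDGFRα hi FB (adjusted p 0.0535) and with length-scaled TPM counts (0.0656). SI was lower than colon in PDGFRα hi FB (-1.84, SE 0.30, adjusted p 0.00243) and in Fgfr2+ FB (-2.72, SE 0.31, adjusted p 9.18e-05), in 3 of 3 libraries each and without overlap, and the difference between these was 0.88 (SE 0.41, adjusted p 0.440). *Ccn2* shares 665 bases of exon with *Gm15270* on the opposite strand, which unstranded reads cannot resolve.

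**Figure D2:**
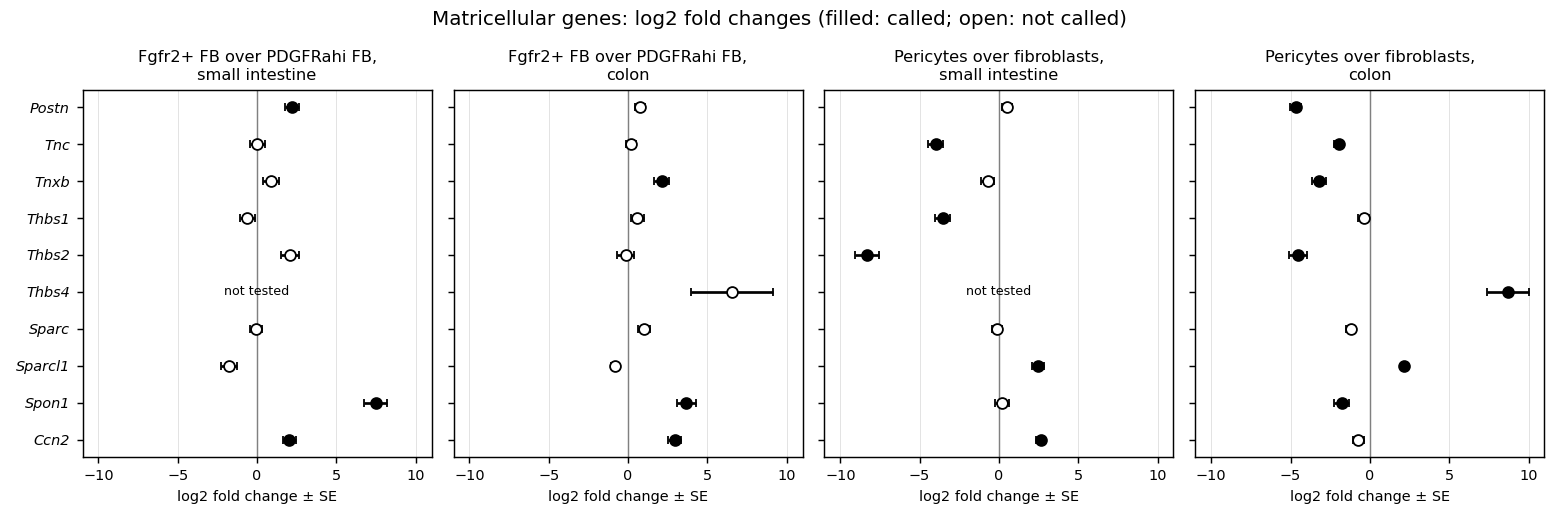
Fitted log2 fold change ± SE (horizontal) of each member (vertical) for Fgfr2+ over PDGFRα hi FB and for pericytes over FB, in SI and in colon (panels), filled where called and open where not; *Thbs4* in colonic pericytes is drawn but not read. *Spon1* reaches 7.47 between Fgfr2+ and PDGFRα hi FB of the SI.

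Counts of members called were read against the share of all genes called in the same comparison. Against SI FB, 5 of 9 tested members were called in SI pericytes (2 higher, 3 lower; median log2 fold change -0.14), where 15.2% of 16237 genes were called and the median over all genes was 0.02. In SMC 6 of 9 members were called (2 higher, 4 lower; median -1.46), against 4.68% of all genes (median -0.02). In colonic pericytes 6 of the 9 members other than *Thbs4* were called (1 higher, 5 lower; median -1.78), against 16.6% of 16458 genes (median 0.05). *Sparcl1* was higher and *Tnc* and *Thbs2* were lower in pericytes of both tissues, whereas *Ccn2* and *Thbs1* were called in the SI and *Postn*, *Tnxb* and *Spon1* in the colon; these differences between tissues were not tested. The SMC count fell to 3 without SMC replicate 1 or 2, SI CD34+ FB replicate 3 or SI PDGFRα hi FB replicate 1 or 2, and the number of genes called in SMC fell from 760 to 483 without SMC replicate 3, and was 1212 by DESeq2 and 1163 with only the populations compared. The members were chosen with results of these data known, so nothing particular to the list is read from these counts.

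Between FB subsets of the SI, 3 of 9 members (*Postn*, *Spon1* and *Ccn2*) were higher in Fgfr2+ than in PDGFRα hi FB and 0 were lower (median 0.89), against 2.24% of all genes (median 0.00). The count was 5 with no filter on low counts, by DESeq2 (832 genes) and with all 30 libraries in 1 model. It was 1 without SI PDGFRα hi FB replicate 1, and the genes called fell from 364 to 207, 201 and 236 without replicates 1, 2 and 3 of that population. Another 3 of 9 members (*Postn*, *Sparc* and *Sparcl1*) were higher in CD34+ than in Fgfr2+ FB (median 1.31), against 0.899% of all genes (median -0.01). This count was 5 with only the populations compared (395 genes), while DESeq2 called 473 genes, and it was 1 without SI CD34+ FB replicate 1 or SI Fgfr2+ FB replicate 2. The 146 genes called there became 52, 63 and 67 without CD34+ FB replicates 1, 2 and 3, 76 and 67 without Fgfr2+ FB replicates 1 and 2, and 230 without SI pericyte replicate 1. *Thbs4* had too few counts to be tested in the SI.

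The 10 members counted between FB subsets of the colon include *Thbs4*, which passed the filter on low counts through its pericyte libraries and is not read there. Of these, 3 of 10 (*Tnxb*, *Spon1* and *Ccn2*) were higher in Fgfr2+ than in PDGFRα hi FB and 0 were lower, against 1.51% of all genes, with medians of 0.74 over the 9 members other than *Thbs4* and 0.02 over all genes. The 248 genes called there were 511 by DESeq2 and 477 with only the populations compared, and fell to 163 and 159 without Fgfr2+ FB replicates 2 and 3 and to 152, 164 and 152 without PDGFRα hi FB replicates 1, 2 and 3. For CD81+ against Fgfr2+ FB 1 of 10 members (*Tnc*, lower) was called, against 1.05% of all genes, and 2 were called without CD81+ FB replicate 1. The medians there were -0.59 over the 9 members other than *Thbs4* and 0.08 over all genes, and the 172 genes called fell to 68, 76 and 106 without Fgfr2+ FB replicates 1, 2 and 3. They were 261 with no filter, 613 by DESeq2, 109 with length-scaled TPM counts and 68 with only the populations compared. For CD90+ against Fgfr2+ FB edgeR called 0 of 10 members and 0% of 16458 genes, 492 of which had an unadjusted p under 0.05, and DESeq2 called 1 member among 20 genes, while edgeR with only the populations compared called 2 genes. Apart from *Thbs4*, the member with the largest difference there was *Tnc*, at 657, 1333 and 827 CPM in CD90+ FB and -1.60 (SE 0.33, adjusted p 0.745) relative to Fgfr2+ FB, without overlap.

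For the comparisons of SI with colon, *Postn* is left out and nothing is read from the counts, since the tissue difference took part in choosing the list. In PDGFRα hi FB 3 of 8 tested members (*Thbs2*, *Spon1* and *Ccn2*) were lower in the SI (median -0.74), against 1.76% of 15677 genes called in either direction (median 0.00). The 276 genes called there fell to 183 without SI PDGFRα hi FB replicate 1 and were 517 by DESeq2 and 168 with all 30 libraries in 1 model. In Fgfr2+ FB 2 of 8 (*Sparcl1* and *Ccn2*) were lower in the SI (median -1.15), against 3.09% of all genes (median 0.01), and 3 were called without replicate 2 of Fgfr2+ FB of either tissue. The 485 genes called there fell to 297 and 275 without colonic Fgfr2+ FB replicates 2 and 3, and were 1071 by DESeq2, 255 with all 30 libraries and 252 with only the populations compared. The difference between these tissue differences passed for 2 of 8 members (*Thbs2* and *Spon1*; median 0.88), against 1.28% of all genes (median -0.00). With all 30 libraries it passed for 1 member and 116 genes in place of 201, and the genes were 340 with no filter and 563 by DESeq2. In pericytes edgeR called 0 of 8 members (median 0.10) and 0% of 13369 genes (median 0.01), with 1094 genes at an unadjusted p under 0.05, 1 gene without SI pericyte replicate 1, and 354 genes with 1 member called by DESeq2. With all 30 libraries in 1 model edgeR called 5 members and 1000 genes between these pericytes, with no filter 22 genes, and with the filter of 10 counts 3 genes. Tested members whose pericyte libraries did not overlap between the tissues were *Thbs1* (-3.51, SE 0.83, adjusted p 0.296), *Thbs2* (-4.49, SE 1.67, adjusted p 0.531) and *Sparc* (0.66, SE 0.27, adjusted p 0.583).

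Levels of different members were compared per kilobase of effective transcript length. *Sparc* was the highest member in all 10 populations on this scale, from 2125 CPM per kb in SMC to 10018 in SI CD34+ FB, and also by the deposited TPM, which are relative to transcript length. *Postn* came next in all 4 colonic FB populations and in SMC, with 2966 CPM per kb in colonic CD90+ FB and 759.6 in SMC. In SI Fgfr2+ FB and SI PDGFRα hi FB it was 7 in the order of the 10 members (48.1 and 11.7 CPM per kb), and *Tnc* came next after *Sparc* there (288 and 274 CPM per kb). *Sparcl1* came next after *Sparc* in pericytes of both tissues (948 and 1419 CPM per kb) and in SI CD34+ FB (548). The 10 members together took 2.60 ± 0.623% of all counts in colonic Fgfr2+ FB, the highest mean share, and 0.645 ± 0.0826% in SMC, the lowest.

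Across the 10 populations the members did not share 1 pattern. The Pearson correlation of mean log2 CPM was highest between *Tnxb* and *Sparc* (0.92), *Thbs1* and *Thbs2* (0.89) and *Tnc* and *Thbs2* (0.80), and lowest between *Tnc* and *Sparcl1* (-0.54). *Postn* had its highest value with *Ccn2* (0.68) and 0.15 with *Tnc*. Among 12613 genes with at least 10 CPM in 1 or more populations, those most like *Postn* were *Pitx1* (0.943), *Sema3a* (0.921), *Vim* (0.907), *Flrt1* (0.900) and *Svopl* (0.887). The genes most like *Tnc* were *Leng9*, *Gpc1* and *Stn1* (0.958 to 0.959), those most like *Tnxb* were *Ext1*, *Man1a* and *Tmod2* (0.968 to 0.984), and those most like *Sparc* were *Slc10a6*, *Heg1* and *Gabra4* (0.943 to 0.956). For *Thbs1* these were *Rpl38*, *Smim13* and *Psma1* (0.971 to 0.982), and for *Thbs2* they included *Hexa* and *Fam3c* (0.970 to 0.971). For *Thbs4* they were *Cttnbp2*, *Sez6l* and *Gm14427* (0.941 to 0.946). *Thbs4* was absent or nearly absent outside colonic pericytes, so its correlations rest mainly on that population, whose libraries differed widely. For *Sparcl1* they were *Nfkbiz*, *Swap70* and *Plk3* (0.935 to 0.957), and for *Ccn2* *Tirap*, *Eif5* and *Uhrf2* (0.872 to 0.887), while for *Spon1* they included *Nbea* and *Cp* (0.921 to 0.932). These are descriptions over n = 10 population means that share tissue and libraries, and carry no p.

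A list of 18 other matricellular genes was read in the same comparisons. In SI pericytes against FB 6 of 16 tested were called (2 higher, 4 lower, median -1.97), where 15.2% of all genes were. In SMC 5 of 16 were called (3 higher, 2 lower, median 1.85) against 4.68% of all genes, and in colonic pericytes 7 of 14 (2 higher, 5 lower, median -2.10) against 16.6%. *Tgfbi*, a close relative of *Postn* in sequence, was at 0.614, 0.729 and 0.848 CPM in SI pericytes and at 187 to 363 CPM in SI FB libraries (-8.50, SE 0.43, adjusted p 1.66e-09). *Ccn3* was at 143, 150.4 and 128 CPM in SMC and at most 6.14 CPM in SI FB (7.01, SE 0.76, adjusted p 1.55e-05). Between Fgfr2+ and PDGFRα hi FB 4 of 16 were called in the SI (2 each way, 2.24% of all genes) and 2 of 14 in the colon (1 each way, 1.51%). *Smoc1*, among those lower in SI Fgfr2+ FB, had 332, 531 and 115 counts in SI PDGFRα hi FB and at most 1 count in SI Fgfr2+ FB. It passed the filter on low counts in the SI through the PDGFRα hi FB libraries. Its test there is therefore not read, although the gene is in the count. *Ccn4* was higher in PDGFRα hi FB of both tissues, at 105, 78.9 and 131 CPM in the SI and 53.0, 48.5 and 99.3 CPM in the colon, without overlap with Fgfr2+ FB (-3.72, adjusted p 0.0123, and -4.18, adjusted p 0.0412, for Fgfr2+ minus PDGFRα hi FB). *Spon2*, the relative of *Spon1*, was at 5.65, 7.92 and 1.47 CPM in SI PDGFRα hi FB and at 399, 459.8 and 241 CPM in SI Fgfr2+ FB (6.12, SE 0.92, adjusted p 0.00104), and so was low in the same population as *Spon1*. The list had 0 of 16 called for SI CD34+ against Fgfr2+ FB (0.899% of all genes) and 0 of 14 for each of CD81+ (1.05%) and CD90+ (0%) against Fgfr2+ FB of the colon by edgeR. Between the tissues 2 of 15 were called in PDGFRα hi FB (*Smoc2* higher in the SI, 6.45, adjusted p 0.0410, and *Spon2* lower, -5.94, adjusted p 2.72e-05, 1.76% of all genes). In Fgfr2+ FB 2 of 15 were called (*Ccn1*, -1.68, and *Smoc1*, lower in the SI, 3.09%), and 0 of 10 in pericytes (0%). *Smoc1* had at most 1 count in a library of SI Fgfr2+ FB and 12, 4 and 44 counts in colonic Fgfr2+ FB. It passed this filter through PDGFRα hi FB libraries, so this test is not read either.

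Receptors of these proteins made a list of 13 genes. *Cd36*, among them, passed the filter on low counts in the SI through the pericyte libraries (45, 1217 and 146 counts). Its test in SI pericytes is therefore not read, although the gene is among those counted as higher there. In SI pericytes against FB 5 of 13 were called (3 higher, 2 lower, median -0.14, 15.2% of all genes), in SMC 6 of 13 (5 higher, 1 lower, median 0.55, 4.68%) and in colonic pericytes 5 of 13 (2 higher, 3 lower, median 0.14, 16.6%). *Itga4*, an integrin subunit, was higher in all 3, at 337, 271 and 507 CPM in SI pericytes, 925, 888 and 3809 CPM in SMC (the last in replicate 3, whose pericyte and fibroblast marker sums were high) and 1122, 1517 and 1391 CPM in colonic pericytes, above every FB library of the same tissue. *Itga8* and *Itgb3* encode integrin subunits as well. In SI Fgfr2+ FB *Itga8* was at 129, 227 and 90.4 CPM, against 1.58, 2.87 and 1.02 CPM in SI PDGFRα hi FB (6.26, SE 0.74, adjusted p 0.000152). *Itgb3* was at 654, 635 and 545 CPM and at 46.0, 83.9 and 44.0 CPM in the same populations (3.34, SE 0.64, adjusted p 0.00792). These were the 2 of 13 called there (2.24% of all genes), with 1 of 13 for SI CD34+ against Fgfr2+ FB (*Itga8*, -5.16, 0.899%), 1 of 13 for CD81+ against Fgfr2+ FB of the colon (*Itga4*, -2.00, 1.05%) and 0 for the other colonic FB comparisons (1.51% and 0%). Between SI and colon 2 of 13 were called in PDGFRα hi FB (*Itgb3* and *Itga4*, lower in the SI, 1.76% of all genes), 3 of 13 in Fgfr2+ FB (*Itgb3* and *Itga8* higher, *Itga4* lower, 3.09%) and 0 of 12 in pericytes (0%).

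Of 7 matrix partners and enzymes, 5 were called in SI pericytes (median -1.60, 15.2% of all genes), 2 in SMC (median -1.08, 4.68%) and 6 in colonic pericytes (median -3.40, 16.6%) against FB. All were lower (collagen genes, *Fn1* and, in the colon, *Bmp1* at -2.24) except *Notch1*, which was higher in pericytes of both tissues (4.16 and 4.12). *Col1a1* (2.21, adjusted p 0.00924), *Col1a2* (1.77, adjusted p 0.00891) and *Col3a1* (2.12, adjusted p 0.00489) were the 3 of 7 called for SI CD34+ against Fgfr2+ FB, all higher, where 0.899% of all genes were called. *Lox*, whose product cross-links collagen, was the 1 of 7 called for colonic Fgfr2+ against PDGFRα hi FB (1.62, adjusted p 0.0415, 1.51% of all genes). It was also lower in SI than in colon, at 10.5, 18.0 and 34.2 CPM against 104, 108 and 133 CPM in PDGFRα hi FB (-2.44, SE 0.50, adjusted p 0.0148), and in Fgfr2+ FB by -2.19 (SE 0.50, adjusted p 0.0228), without overlap in either subset. *Col3a1* was the other of the 2 of 7 called in PDGFRα hi FB (-2.22, adjusted p 7.73e-05, 1.76% of all genes), *Lox* the 1 of 7 in Fgfr2+ FB (3.09%), and 0 of 7 were called in the remaining FB comparisons (2.24%, 1.05% and 0% of all genes) and between pericytes (0%).

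Of 13 upstream genes (TGF-β ligands and receptors, YAP/TEAD and the receptors of IL-4 and IL-13), 4 were called in SI pericytes against FB (1 higher, 3 lower, median 0.33, 15.2% of all genes), 1 in SMC (*Tgfb2*, -3.59, median -0.07, 4.68%) and 1 in colonic pericytes (*Tgfbr2*, -2.10, median -0.48). In colonic pericytes that is a smaller share than the 16.6% of all genes. *Il13ra1*, 1 of the 3 lower genes, had 1, 0 and 0 counts in SI pericytes against a mean of 18.9 CPM in SI FB (adjusted p 0.000158), where a fitted fold change depends on the prior count. *Tgfb2* was higher in SI Fgfr2+ than in PDGFRα hi FB (2.32, adjusted p 0.0192) and *Tgfb3* was higher in colonic Fgfr2+ than in PDGFRα hi FB (2.40, adjusted p 0.0294), the 1 of 13 called in each (2.24% and 1.51% of all genes). Between the tissues the 1 of 13 called in PDGFRα hi FB was *Tgfb3*, at 113, 166 and 105 CPM in the SI and 21.6, 24.7 and 24.9 CPM in the colon (2.44, SE 0.37, adjusted p 0.00142, 1.76% of all genes), without overlap. None of the 13 passed edgeR's test between tissues in Fgfr2+ FB (3.09% of all genes) or in the remaining FB comparisons (0.899%, 1.05% and 0%), and 0 of 12 did between pericytes (0%).

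RefSeq promoters of GRCm38.p6, 250 bases before to 50 after a gene start, had an entry for 6 of the 10 members; *Thbs1*, *Sparcl1*, *Spon1* and *Ccn2* had none. They were searched on both strands for TATAAA (the TATA box), TGANTCA (AP-1), GGAATG (TEAD) and GGGCGG (SP1). These letters occur in 13.6%, 7.8%, 14.7% and 35.7% of 32851 promoters. The promoters of *Postn* and of the tenascins, which differ from each other in order across the populations, are shown with matches in capitals. *Postn* lies at chr3:54360857-54361156 (plus strand), *Tnc* at chr4:64046966-64047265 (minus strand) and *Tnxb* at chr17:34670285-34670584 (plus strand).
Postn: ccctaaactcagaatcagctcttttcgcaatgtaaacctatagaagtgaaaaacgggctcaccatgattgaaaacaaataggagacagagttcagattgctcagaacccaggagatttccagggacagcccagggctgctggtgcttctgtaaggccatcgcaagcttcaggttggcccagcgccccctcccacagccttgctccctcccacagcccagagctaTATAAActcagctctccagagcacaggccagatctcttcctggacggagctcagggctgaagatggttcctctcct
Tnc: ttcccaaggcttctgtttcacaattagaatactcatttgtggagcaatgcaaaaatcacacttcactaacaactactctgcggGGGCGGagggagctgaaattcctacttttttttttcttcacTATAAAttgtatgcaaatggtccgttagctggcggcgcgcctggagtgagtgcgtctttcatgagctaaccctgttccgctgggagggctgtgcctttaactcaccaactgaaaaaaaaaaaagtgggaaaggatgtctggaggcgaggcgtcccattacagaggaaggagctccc
Tnxb: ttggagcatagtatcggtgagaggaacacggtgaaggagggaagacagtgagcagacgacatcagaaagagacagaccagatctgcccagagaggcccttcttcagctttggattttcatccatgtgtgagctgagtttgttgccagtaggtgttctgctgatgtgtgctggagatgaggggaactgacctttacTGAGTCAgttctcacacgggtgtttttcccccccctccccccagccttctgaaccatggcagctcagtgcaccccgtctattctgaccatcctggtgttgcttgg
*Postn* has TATAAA 26 bases before its start. *Tnc* has TATAAA 126 and GGGCGG 167 bases before its start, and *Tnxb* has TGAGTCA, a match of TGANTCA, 55 bases before. Of the others, *Thbs2* has TATAAA 126 bases before its start, *Thbs4* has 2 matches of GGAATG and 3 of GGGCGG, and *Sparc* has none of these letters in the window. A match is a description of the sequence and not evidence of a site.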

How the data were processed

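The 10 members and the lists beside them (other matricellular genes, receptors, matrix partners, upstream genes and the marker lists) were chosen with earlier results of these data known. As deposited, the estimated counts and TPM per transcript come from the authors' run of kallisto 0.42.5 after FastQC 0.11.2 and Trim Galore 0.4.0, versions that are taken from the submitters' processing notes, which do not name the transcript set. Of 98492 transcripts 97204 were matched to gene symbols of GENCODE M21 (GRCm38), which held 97.83 to 99.21% of the counts of a library, and counts were summed per gene and rounded to whole numbers. Genes under the same symbol were added together. Library totals were 2245052 to 19096945. Levels are CPM with TMM factors over the 30 libraries.

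Separate edgeR models were made for the SI (15 libraries), the colon (15), Fgfr2+ and PDGFRα hi FB of both tissues (12) and pericytes (6), keeping genes with 6 counts in 3 libraries. Each SE was derived from the fitted change and the root of its F statistic. Not each gene named from a list is printed with its value, and *Postn* has no p where tissue differs. Results of a few list genes, among them the sum of the glial list, are not reported here. R 4.3.3, edgeR 4.0.16, limma 3.58.1 and DESeq2 1.42.0 were used. Alternatives, all planned before the models were made, were RLE factors, no filter, a stricter filter of 10 counts, length-scaled TPM counts, a replicate block, DESeq2, other sets of libraries and leaving out each library.

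Limits are the 3 libraries per population, which leave SDs imprecise, and the gates of FB subsets, which differ between tissues. SMC were sorted from the SI alone. Bulk libraries show no single cells, and a few cells of another type may add RNA. Libraries are read without strand, so exons on opposite strands are not separated for *Tnc* (176 bases, *8030451A03Rik*), *Tnxb* (3, *Cyp21a2-ps*), *Thbs1* (208, *Gm29233*) and *Ccn2* (665, *Gm15270*). The paper describes sorting SI and colonic subsets from the same mice, and gives the bulk data as coming from 3 independent experiments. Whether a replicate number stands for the same mouse or experiment in each population is not known, and the main models hold no term for it. RNA levels are not protein levels.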

Additional observations from a re-analysis of the deposited data

Results flagged for a closer look

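The tissue difference of PDGFRα hi FB minus that of Fgfr2+ FB, tested as an interaction, passed for these members and list genes. For *Thbs2* it was -2.25 (SE 0.42, adjusted p 0.0111) and for *Spon1* -3.84 (SE 0.45, adjusted p 0.000387).

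Among other matricellular genes it was 1.99 (SE 0.43, adjusted p 0.0299) for *Ccn1*, with a tissue difference of -1.68 in Fgfr2+ FB, and -4.80 (SE 0.70, adjusted p 0.00187) for *Spon2*, with a tissue difference of -5.94 in PDGFRα hi FB. Among the receptors it was -3.18 (SE 0.44) for *Itgb3*, whose tissue difference was -1.55 for PDGFRα hi FB but 1.63 for Fgfr2+ FB. It was -5.78 (SE 0.85, adjusted p 0.00192) for *Itga8*. Among upstream genes it was 3.52 (SE 0.52, adjusted p 0.00191) for *Tgfb3*. No test for single outlying libraries was made, as the groups hold 3 libraries.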

How the results depend on the processing

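Of the member calls that were tested, 11 lost the call in at least 1 alternative and 0 reversed. *Thbs4* in colonic pericytes had no value under the strict filter of 10 counts. The counts of members and genes called stayed within 1.5 times their value in 24 of 24 results with RLE factors and in 24 of 24 with the replicate block. They did so in 20 of 24 with no filter, 23 of 24 with the strict filter, 23 of 24 with length-scaled TPM, 11 of 24 with DESeq2, 17 of 24 with all 30 libraries and 11 of 18 with only the populations compared. The cause was not tested for any of these moves.

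With no filter, 5 members were called for SI Fgfr2+ against PDGFRα hi FB. The genes called were then 261 for colonic CD81+ against Fgfr2+ FB, 340 for the interaction and 22 for pericytes between tissues. The strict filter gave 3 genes for pericytes between tissues, and length-scaled TPM gave 109 genes for CD81+ against Fgfr2+ FB.

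DESeq2 called more genes: 1212 for SMC, 832 (5 members) for SI Fgfr2+ against PDGFRα hi FB, 473 for SI CD34+ against Fgfr2+ FB, 511 for colonic Fgfr2+ against PDGFRα hi FB, 613 for CD81+ and 20 (1 member) for CD90+ against Fgfr2+ FB. Between tissues it called 517 genes in PDGFRα hi FB, 1071 in Fgfr2+ FB, 354 (1 member) in pericytes and 563 for the interaction.

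With all 30 libraries, 5 members were called for SI Fgfr2+ against PDGFRα hi FB, 168 genes for PDGFRα hi FB and 255 for Fgfr2+ FB between tissues, 1000 genes and 5 members for pericytes, and 116 genes and 1 member for the interaction. With only the populations compared, the genes called were 1163 for SMC, 395 (5 members) for SI CD34+ against Fgfr2+ FB, 477 for colonic Fgfr2+ against PDGFRα hi FB, 68 for CD81+ and 2 for CD90+ against Fgfr2+ FB, and 252 for Fgfr2+ FB between tissues. This setting was not run where it equals the model used, which is colonic pericytes, pericytes between tissues and the interaction.

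Leaving out each library in turn gave 3 to 6 members and 483 to 987 genes for SMC, 1 to 4 members and 201 to 537 genes for SI Fgfr2+ against PDGFRα hi FB, and 1 to 4 members and 52 to 230 genes for SI CD34+ against Fgfr2+ FB. In the colon it gave 152 to 315 genes for Fgfr2+ against PDGFRα hi FB and 1 to 2 members and 68 to 235 genes for CD81+ against Fgfr2+ FB. Between tissues it gave 183 to 341 genes in PDGFRα hi FB, 275 to 499 in Fgfr2+ FB and 0 to 1 in pericytes.

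According to the paper, SI and colonic subsets came from the same mice. Whether libraries of the same replicate number are paired by mouse or experiment is not known. With that number as a block, the model gave 5 members for SI pericytes, 5 for SMC, 4 for SI Fgfr2+ against PDGFRα hi FB and 4 for SI CD34+ against Fgfr2+ FB. Correlations between libraries of the same number, after removal of population means, averaged 0.00757, and those of other numbers -0.00342.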

Other observations

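*Thbs4* had 159, 2 and 336 counts in the libraries of colonic pericytes. The library with 2 counts is also the one with 37.4% of its *Postn* counts on transcripts with a retained intron and with the lowest *Spon1* level of the group (6.51 CPM). Its marker sums also stand apart, with 142 CPM for the immune list (12.2 and 27.6 in the other replicates; *Lyz2* 91.0 and *Csf1r* 48.4) and 30.8 CPM for the epithelial list, the highest of all libraries. The part of other cells in these values was not tested.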
